A study of Mus musculus with 9 samples.

Results

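Forkhead transcription factor genes were examined in dermal cells of newborn mice that had been sorted by their surface level of CD49f, the integrin alpha 6 subunit encoded by Itga6. A row of the expression table was taken as a forkhead gene when 1 of its symbols was Fox, a subfamily letter from a to s and a number, and 43 of the 84809 rows met this rule. Every cell came directly from mice of the strain Krt14 cre;Rosa26-mTmG, in which Cre is driven by the promoter of keratin 14, a keratinocyte gene, and a membrane reporter changes colour where Cre acts. The 3 gates were CD49f-high, CD49f-low and CD49f-neg, all labelled as mesenchymal, with 3 libraries of each. All 9 libraries shared the genotype, the age and the tissue, and differed by gate. The number of mice behind a library is not given in the labels, so p-values measure the spread between these libraries, which may be technical.

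Forkhead proteins bind DNA through a winged-helix domain whose recognition helix lies in the major groove, and the subfamilies differ mainly outside that domain. Foxd3 acts in the neural crest and its glial descendants, the FOXC and FOXF factors in mesenchyme and vessel walls, and the FOXO factors downstream of insulin and PI3K-AKT signalling, which moves them out of the nucleus. Foxm1 drives genes of G2 and mitosis, and the FOXP, FOXK and FOXN subfamilies include widely expressed regulators, several of which repress transcription.

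The sorted antigen followed the labels. Itga6 had 15.9, 19.7 and 24.1 FPKM (fragments per kilobase, scaled to the depth of the library) in the CD49f-high libraries, 6.05, 4.38 and 6.09 in the CD49f-low libraries and 0.710, 0.433 and 0.283 in the CD49f-neg libraries. From the steps between low values, 1 FPKM of a gene with 1 kilobase of transcript was estimated to stand for 23.7 to 27.3 fragments, depending on the library. CD49f-high replicate 1 stood apart from the other libraries of its gate. Its summed FPKM of 15 Schwann cell and glia genes was 127, against 317 and 357 in CD49f-high replicates 2 and 3, and its sum of 6 adipocyte genes was 323, against 55.7 and 42.2. Foxd3 is given with and without it.

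Of the 43 forkhead genes, 20 passed the filter (1 FPKM or more in 3 or more libraries) and 13 of these were called in at least 1 comparison (limma, Benjamini-Hochberg adjusted p under 0.05 over 20523 rows). Between CD49f-high and CD49f-neg, 11 were called, 9 higher and 2 lower in CD49f-high, while 22.1% of all rows tested were called, 13.9% higher and 8.27% lower. Between CD49f-low and CD49f-neg, 8 were called and all 8 were higher in CD49f-low, while 15.4% of all rows were called, 12.8% higher and 2.62% lower. Between CD49f-high and CD49f-low, 6 were called, 4 higher and 2 lower in CD49f-high, while 16.4% of all rows were called, 5.93% higher and 10.5% lower. Foxs1 and Foxd3 were the 2 genes called in all 3 comparisons. The moderated F test over the 3 gates called 12, while 28.5% of all rows were called. Libraries of the gates compared did not overlap for 13 of the 20 genes between CD49f-high and CD49f-neg (36.4% of all rows), 11 between CD49f-low and CD49f-neg (40.5%) and 12 between CD49f-high and CD49f-low (37.2%). A gene that passed the filter only through the gate in which it was high had to differ, so these counts describe the 20 genes and do not show that the family as such differed.

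The median log2 fold change of the 20 genes was 0.62 for CD49f-high against CD49f-neg, 0.37 for CD49f-low against CD49f-neg and 0.05 for CD49f-high against CD49f-low. Over all rows it was 0.07, 0.21 and -0.15. Under median-of-ratios scaling the median of all rows for CD49f-low against CD49f-neg was 0.01, and 4 forkhead genes were called there. These were Foxd3 at 2.49, Foxd1 at 1.98, Foxs1 at 1.32 and Foxc1 at 1.20, all higher in CD49f-low, whereas the calls of Foxm1, Foxp4, Foxo1 and Foxk1 were lost. Fold changes were taken on log2(FPKM + 1), and for rows with low values that pseudocount makes them smaller. With a pseudocount of 0.1 in place of 1, Foxd3 came to 7.22, Foxs1 to 6.59, Foxf1 to 4.49, Foxc2 to 3.26 and Foxc1 to 3.21 for CD49f-high against CD49f-neg, and each remained called.

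**Figure D1:**
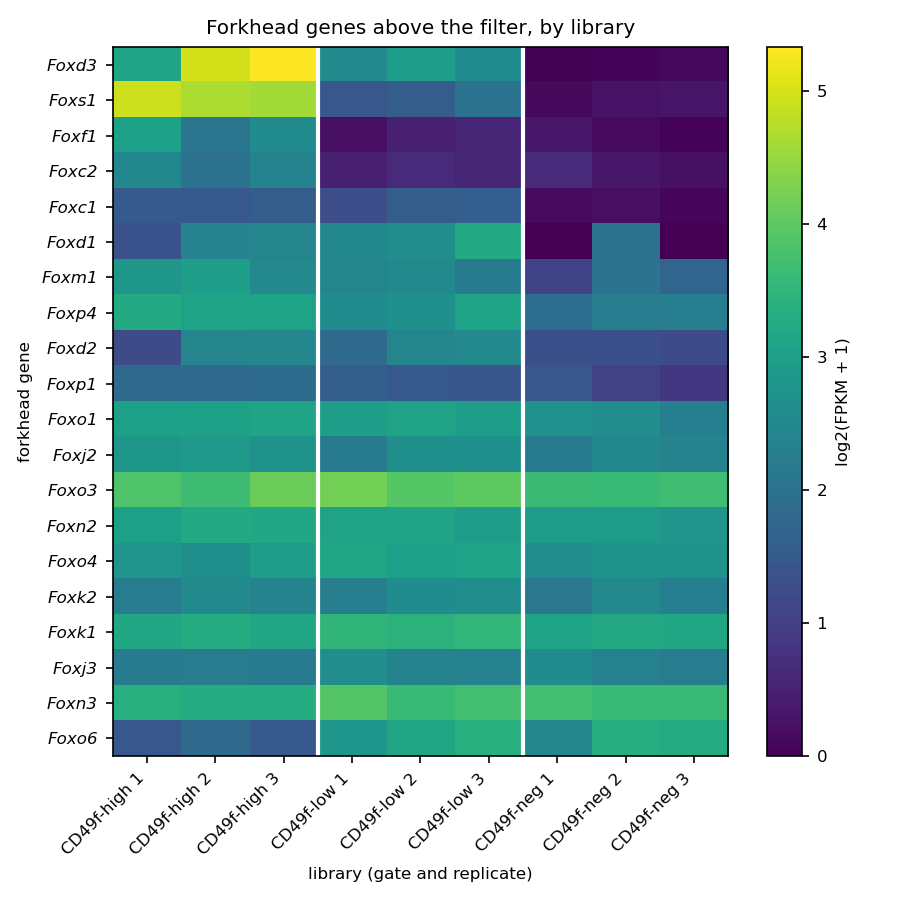
Expression of the 20 forkhead genes above the filter (rows) in each of the 9 libraries (columns, CD49f-high left, CD49f-neg right), coloured by log2(FPKM + 1). Foxd3, Foxs1, Foxf1 and Foxc2 are brightest in the CD49f-high libraries, Foxo6 is darkest there, and most other rows change little across the gates.

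Most of the 43 genes encode a closely similar part of the DNA-binding helix. A stretch of 30 coding bases from this helix, the 10 codons with the highest amino acid identity over the 43 genes, is shown for 8 of the 13 called genes, picked to span the subfamilies. Capitals mark bases that differ from Foxs1, and the sequences are from GENCODE M21 transcripts on GRCm38, written 5′ to 3′ on the coding strand.
Foxs1: aacagcatccgccataacctgtctctcaac
Foxd3: aacagcatccgccaCaacctgtcGctcaac
Foxc2: aacagcatccgccaCaacctgtcActcaaT
Foxc1: aacagcatAcgGcaCaacctCtcGctcaac
Foxf1: aacTCcGtGcgccaCaacctgtcGctcaac
Foxo6: aacTCcatTcgGcaCaacctgtcGctGCac
Foxp4: aaTGCcGtGcgccaCaacctCAGCctGCac
Foxn3: aacTCAGtGAgAcaCaacTtgtcATtGaaT
The stretch lies at chr2:152932913-152932942 on the minus strand in Foxs1 and at chr4:99657153-99657182 on the plus strand in Foxd3, and both genes have a single exon. Of the 43 genes, Foxs1 itself included, 18 encode all 10 amino acids of the Foxs1 stretch, Foxd3, Foxc1 and Foxc2 among them. Counted the same way, 32 differ from it at no more than 1 amino acid, and the lowest match was 4, in Foxr1. The stretch was picked for its identity over these genes, so the counts do not measure how alike the whole domain is. Foxf1, Foxo6 and Foxn3 match it at 9 amino acids and Foxp4 at 7. Foxs1, highest in CD49f-high, and Foxo6, lowest there, thus encode stretches that differ at 1 amino acid.

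Foxs1, a single-exon forkhead gene known in mouse from cells around vessels and from early sensory neurons, was high in CD49f-high, low in CD49f-low and close to nothing in CD49f-neg. It lies at chr2:152931898-152933208 on the minus strand. Its level was 29.3, 24.6 and 23.0 FPKM in the CD49f-high libraries, 1.71, 1.99 and 3.07 FPKM in the CD49f-low libraries and 0.0909, 0.190 and 0.238 FPKM in the CD49f-neg libraries. The 3 gates did not overlap. The log2 fold change was 4.50 (SE 0.16, limma adjusted p = 1.34e-06) for CD49f-high against CD49f-neg, 1.45 (SE 0.16, adjusted p = 0.000401) for CD49f-low against CD49f-neg and 3.05 (SE 0.16, adjusted p = 1.17e-05) for CD49f-high against CD49f-low. All 3 calls held in every alternative fit that was run. In sorted bulk samples, fewer cells of a type and less RNA per cell cannot be told apart, here and in every result that follows.

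Genes that mark pericytes, the contractile cells on capillaries, were also higher in CD49f-high. All 12 pericyte genes were called higher in CD49f-high relative to CD49f-neg, 5 were called higher in CD49f-low relative to CD49f-neg and 11 higher in CD49f-high relative to CD49f-low. Of all rows tested, 13.9%, 12.8% and 5.93% were higher in these comparisons. The 7 that were not called between CD49f-low and CD49f-neg included values below 0, such as Pdgfrb, the PDGF receptor of pericytes, at -0.17. The summed FPKM of the list was 1324, 769 and 1036 in the CD49f-high libraries, 99.0, 101 and 145 in the CD49f-low libraries and 83.6, 78.8 and 61.9 in the CD49f-neg libraries. Mcam, an adhesion molecule of pericytes and smooth muscle, averaged 71.9 ± 9.21 FPKM in CD49f-high, 14.5 ± 1.93 in CD49f-low and 3.65 ± 0.519 in CD49f-neg (SD, n = 3 each). The part of the pericyte genes in the Foxs1 result was not tested.

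Foxd3, which keeps neural crest cells multipotent and steers them away from the melanocyte fate, was on average as abundant as Foxs1 in CD49f-high and varied far more between its libraries. Its single exon lies at chr4:99656299-99658622 on the plus strand, and the row also carries the symbol of the predicted gene Gm23366, so the share of each is uncertain. Foxd3 had 7.68, 30.4 and 39.1 FPKM in the CD49f-high libraries, 4.79, 6.82 and 4.91 FPKM in the CD49f-low libraries and 0.0171, 0.0329 and 0.0789 FPKM in the CD49f-neg libraries. Every CD49f-high library was above every CD49f-low library, but replicate 1 only just, and every CD49f-neg library was near 0.

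The log2 fold change of Foxd3 was 4.41 (SE 0.46, limma adjusted p = 0.000143) for CD49f-high against CD49f-neg and 2.63 (SE 0.46, adjusted p = 0.00535) for CD49f-low against CD49f-neg. For CD49f-high against CD49f-low it was 1.78 (SE 0.46, adjusted p = 0.0281). Without CD49f-high replicate 1 the value was 5.09 (SE 0.17, adjusted p = 1.67e-06) against CD49f-neg and 2.46 (SE 0.17, adjusted p = 8.31e-05) against CD49f-low. The call between CD49f-high and CD49f-low was lost without CD49f-high replicate 2 (adjusted p = 0.0907), CD49f-high replicate 3 (0.0888), CD49f-low replicate 1 (0.0841), CD49f-low replicate 2 (0.0529) or CD49f-low replicate 3 (0.0891), with no filter (0.0770) and in a fit of the 6 libraries compared (0.0654).

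A row on the opposite strand, which ends 286 bases before Foxd3 and partly overlaps the annotated gene Gm12688, had the same order of gates. Its level was 1.22, 4.28 and 6.68 FPKM in the CD49f-high libraries, 1.16, 1.45 and 1.58 FPKM in the CD49f-low libraries and 0, 0 and 0.00934 FPKM in the CD49f-neg libraries. CD49f-high replicate 1 was again the lowest of its gate. The row was called higher in CD49f-high relative to CD49f-neg at a log2 fold change of 2.16 (limma adjusted p = 0.00225) and higher in CD49f-low relative to CD49f-neg at 1.25 (adjusted p = 0.0466). At 0.91 it was not called between CD49f-high and CD49f-low (adjusted p = 0.127).

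The window around the Foxd3 start, which lies next to that row, is chr4:99656049-99656348 on the plus strand of GRCm38.p6 (RefSeq), and covers mostly bases before the start. It is shown because both rows begin near it. Capitals mark the 1 match to the E-box CANNTG, a motif that reads the same on both strands.
Foxd3: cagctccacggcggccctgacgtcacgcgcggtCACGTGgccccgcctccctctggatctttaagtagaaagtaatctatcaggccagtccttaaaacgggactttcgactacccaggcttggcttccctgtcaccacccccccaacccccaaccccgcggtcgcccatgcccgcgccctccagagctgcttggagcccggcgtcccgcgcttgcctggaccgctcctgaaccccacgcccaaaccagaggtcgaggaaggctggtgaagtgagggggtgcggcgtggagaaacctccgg
The window is 65.7% G and C and holds 25 CpG. It has no match to the core forkhead motif TAAACA or to TATAAA on either strand. Windows of the same length were found for 27 forkhead genes, with 32 starts. E-box matches occurred in 65.6% of these 32 windows and in 72.3% of all 32851 windows, TAAACA in 15.6% and 13.4%, and TATAAA in 9.38% and 13.6%. The median was 62.8% G and C and 22 CpG in the forkhead windows, against 52.7% and 7 CpG in all windows. A match describes letters and is not evidence of binding.

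Schwann cell and glia genes were also mostly higher in CD49f-high. Of 15 such genes 14 were tested, with 11 called higher in CD49f-high relative to CD49f-neg and 6 higher in CD49f-low relative to CD49f-neg. In CD49f-high relative to CD49f-low, 7 were higher and 1 lower. Of all rows tested, 13.9% were higher in the first comparison, 12.8% higher in the second, and 5.93% higher and 10.5% lower in the last. The list summed to 127, 317 and 357 FPKM in the CD49f-high libraries, 125, 133 and 130 in the CD49f-low libraries and 92.0, 114 and 109 in the CD49f-neg libraries. Erbb3, the neuregulin receptor of glia, averaged 21.1 ± 11.8 FPKM in CD49f-high, 12.8 ± 1.83 in CD49f-low and 0.115 ± 0.0665 in CD49f-neg (SD, n = 3 each). It was not called between CD49f-high and CD49f-low (0.50, limma adjusted p = 0.425), and CD49f-high replicate 1, at 7.73 FPKM, was below every CD49f-low library. Sox10 was not called there either (-0.03, limma adjusted p = 0.976). Sox2 was the gene called lower, with means of 2.59 FPKM in CD49f-high and 7.43 in CD49f-low (-1.25, limma adjusted p = 0.00484).

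Melanocyte genes had the other order. All 12 were called higher in CD49f-low relative to CD49f-neg, 7 were called higher in CD49f-high relative to CD49f-neg, and 10 were called lower in CD49f-high relative to CD49f-low. The shares of all rows were 12.8% higher, 13.9% higher and 10.5% lower. Their summed FPKM was 33.1, 75.7 and 75.8 in the CD49f-high libraries, 479, 588 and 579 in the CD49f-low libraries and 6.34, 6.22 and 6.41 in the CD49f-neg libraries. Much of the CD49f-high sum came from Sox10, with 7.46, 32.5 and 44.9 FPKM, and Ednrb, with 10.15, 25.6 and 21.9 FPKM. Sox10 is also in the glial list. Pmel, another gene of the melanocyte list, had 5.23, 6.38 and 1.56 FPKM in the CD49f-high libraries. Dct, an enzyme of melanin synthesis, averaged 3.47 ± 1.62 FPKM in CD49f-high, 170 ± 27.9 in CD49f-low and 0.171 ± 0.0524 in CD49f-neg (SD, n = 3 each). The parts of glial and of melanocyte genes in the Foxd3 values were not tested.

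Genes that work beside Foxd3 in the neural crest moved in both directions. Of 13 such genes, 8 were called higher and 3 lower in CD49f-high relative to CD49f-neg. In CD49f-low relative to CD49f-neg 8 were higher and 1 lower, and in CD49f-high relative to CD49f-low 1 was higher and 6 lower. Their medians were 1.32, 1.08 and -0.59. Of all rows tested, 13.9% were higher and 8.27% lower in the first comparison, 12.8% and 2.62% in the second and 5.93% and 10.5% in the last, with medians of 0.07, 0.21 and -0.15. Sox10, Mitf and Ednrb are also in the melanocyte list, and Sox10 in the glial list. Tfap2a, an early neural crest regulator, averaged 2.33 ± 0.915 FPKM in CD49f-high, 8.65 ± 1.63 in CD49f-low and 0.0669 ± 0.0244 in CD49f-neg (SD, n = 3 each). Mitf, the main regulator of melanocytes, averaged 1.72 ± 0.170 FPKM in CD49f-high, 10.9 ± 1.10 in CD49f-low and 2.05 ± 0.479 in CD49f-neg. Twist1, a factor of mesenchyme, was lower in CD49f-high, with 36.5 ± 2.90 FPKM in CD49f-high, 82.8 ± 8.27 in CD49f-low and 112 ± 7.22 in CD49f-neg. Zic1, a factor of dorsal mesoderm and neural border, averaged 1.64 ± 0.142, 7.31 ± 0.904 and 6.70 ± 0.704 FPKM in CD49f-high, CD49f-low and CD49f-neg.

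**Figure D2:**
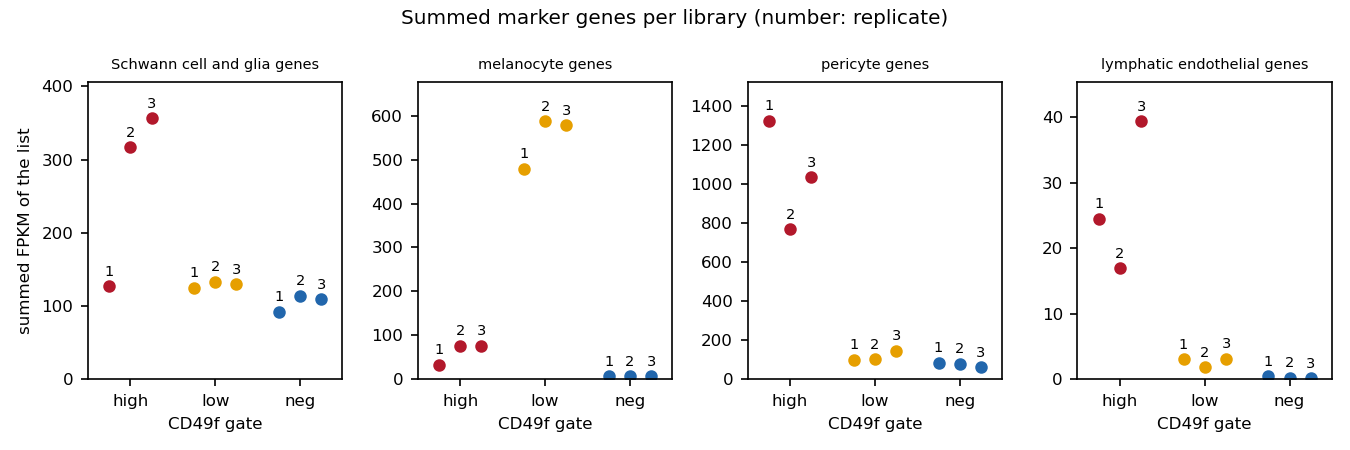
Summed FPKM of Schwann cell and glia, melanocyte, pericyte and lymphatic endothelial genes (vertical axes) by gate, with each point a library and its number the replicate. The CD49f-high libraries stand highest for pericyte and lymphatic genes, replicate 1 of that gate is low for glial genes at 127, and melanocyte genes stand highest in CD49f-low at 479 to 588.

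Foxf1 and Foxc2, which are neighbours on chromosome 8, were high in CD49f-high and low in both other gates. Foxf1, a target of hedgehog signals in mesenchyme, lies at chr8:121084386-121088144 and had 6.98, 3.23 and 4.90 FPKM in the CD49f-high libraries, 0.170, 0.380 and 0.461 FPKM in the CD49f-low libraries and 0.263, 0.119 and 0.0304 FPKM in the CD49f-neg libraries. Foxc2, needed for lymphatic valves and for pericyte coverage of vessels, lies 28.0 kb further on at chr8:121116171-121118895. It had 4.57, 2.97 and 4.21 FPKM in the CD49f-high libraries, 0.383, 0.567 and 0.456 FPKM in the CD49f-low libraries and 0.565, 0.274 and 0.182 FPKM in the CD49f-neg libraries. For both genes CD49f-high was clear of the other gates, which overlapped each other. Both reached 1 FPKM only in the CD49f-high libraries, so they passed the filter only through that gate and had to differ.

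The log2 fold change of Foxf1 was 2.37 (SE 0.22, limma adjusted p = 6.04e-05) for CD49f-high against CD49f-neg and 2.13 (SE 0.22, adjusted p = 0.000199) for CD49f-high against CD49f-low. For Foxc2 the same comparisons gave 1.87 (SE 0.16, adjusted p = 4.70e-05) and 1.73 (SE 0.16, adjusted p = 0.000140). CD49f-low and CD49f-neg were not called apart for Foxf1 (0.23, adjusted p = 0.477) or Foxc2 (0.14, adjusted p = 0.573). Foxl1, the third gene of this cluster, lies 9.04 kb beyond Foxc2. It stayed below the filter, with 0.394, 0.291 and 0.705 FPKM in the CD49f-high libraries, 0.00742, 0.0464 and 0.151 FPKM in the CD49f-low libraries and 0.0698, 0.0283 and 0.0271 FPKM in the CD49f-neg libraries. CD49f-high was again the highest gate.

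Foxc1, a regulator of mesenchyme, vessels and the eye that is closely related to Foxc2, was at a like level in both CD49f-positive gates. It lies at chr13:31806691-31810643 and had 1.85, 1.78 and 1.98 FPKM in the CD49f-high libraries, 1.38, 1.98 and 2.02 FPKM in the CD49f-low libraries and 0.121, 0.157 and 0.0696 FPKM in the CD49f-neg libraries. CD49f-high and CD49f-low overlapped, and both were clear of CD49f-neg. On the log2 scale the fold change was 1.36 (SE 0.13, limma adjusted p = 6.78e-05) for CD49f-high against CD49f-neg and 1.32 (SE 0.13, adjusted p = 0.000155) for CD49f-low against CD49f-neg, with 0.05 (SE 0.13, adjusted p = 0.832) between CD49f-high and CD49f-low.

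The other genes of the chromosome 13 cluster differed from Foxc1. Foxf2, a mesenchymal factor found in brain pericytes, lies 175 kb before Foxc1 and had 0.670, 0.820 and 1.13 FPKM in the CD49f-high libraries, 0.306, 0.237 and 0.227 FPKM in the CD49f-low libraries and 0.311, 0.368 and 0.217 FPKM in the CD49f-neg libraries. CD49f-high was clear of both other gates, which overlapped, as for Foxf1. Foxq1, known in mouse for its role in hair shafts, lies 64.8 kb before Foxf2 and averaged 0.339, 0.302 and 0.301 FPKM in CD49f-high, CD49f-low and CD49f-neg.

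**Figure D3:**
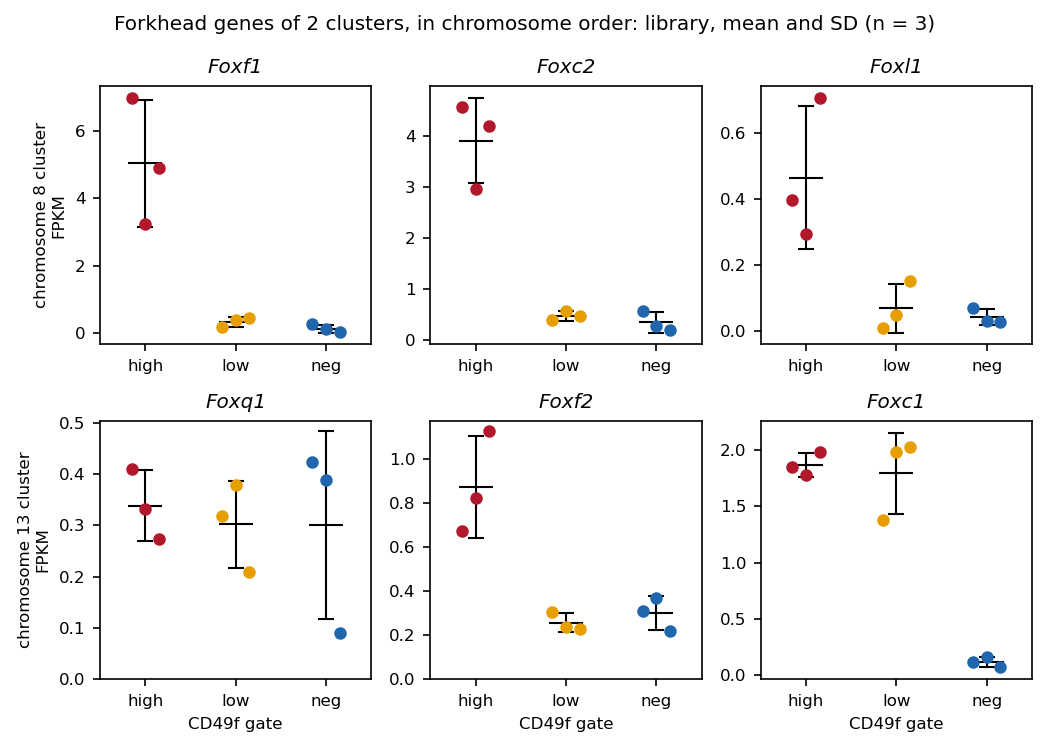
FPKM (vertical axes) of the forkhead genes of the chromosome 8 cluster (top) and the chromosome 13 cluster (bottom), in chromosome order, by CD49f gate, with points for libraries and bars for mean and SD (n = 3). Foxf1, Foxc2, Foxl1 and Foxf2 are highest in CD49f-high, Foxc1 is near 1.8 in both CD49f-high and CD49f-low, and Foxq1 overlaps in all gates.

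Genes that work with FOXC and FOXF factors in vessel walls and lymphatic valves were mostly higher in CD49f-high. Of 14 such genes 10 were tested, with 7 higher and 2 lower in CD49f-high relative to CD49f-neg and 5 higher in CD49f-low relative to CD49f-neg. In CD49f-high relative to CD49f-low, 5 were higher and 2 lower. Of all rows tested, 13.9% were higher and 8.27% lower in the first comparison, 12.8% higher in the second, and 5.93% higher and 10.5% lower in the last. Pdgfrb and Notch3 are also in the pericyte list, and Flt4 and Prox1 in the lymphatic endothelial list, so these lists are not independent. Gja4, a connexin of arteries, averaged 18.9 ± 5.33 FPKM in CD49f-high, 1.33 ± 0.489 in CD49f-low and 0.0782 ± 0.0474 in CD49f-neg (SD, n = 3 each). Tbx2, a T-box repressor of mesenchyme, averaged 8.89 ± 2.06 FPKM in CD49f-high, 1.22 ± 0.287 in CD49f-low and 0.253 ± 0.0468 in CD49f-neg. Hey2 had its highest mean in CD49f-low, with 5.14, 8.64 and 1.23 FPKM in CD49f-high, CD49f-low and CD49f-neg. It was called lower in CD49f-high relative to CD49f-low (-0.65, limma adjusted p = 0.0181).

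Genes of several vessel cell types were higher in the CD49f-high libraries. Of 6 lymphatic endothelial genes, 5 were tested and all 5 were called higher in CD49f-high relative to CD49f-neg and relative to CD49f-low. Each of the 5 reached 1 FPKM only in CD49f-high libraries, so it passed the filter only through that gate and had to differ. Prox1, not tested, overlapped between CD49f-high (0.943, 0.699 and 1.73 FPKM) and CD49f-low (1.06, 0.830 and 0.740 FPKM). The summed FPKM of the 6 genes was 24.5, 16.9 and 39.4 in the CD49f-high libraries, 3.05, 1.81 and 3.14 in the CD49f-low libraries and 0.478, 0.212 and 0.124 in the CD49f-neg libraries. Of 10 smooth muscle genes, 9 were higher in CD49f-high relative to CD49f-neg, and of 7 tested blood endothelial genes 3 were higher and 1 lower. The shares of all rows were 13.9% higher and 8.27% lower in CD49f-high relative to CD49f-neg, and 5.93% higher relative to CD49f-low. The part of these cell types in the Foxf1, Foxc2 and Foxc1 results was not tested.

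Foxd1, which marks stromal progenitors and dermal fibroblasts, had its highest mean in CD49f-low, although CD49f-high and CD49f-low were not called apart (-0.75, SE 0.52, limma adjusted p = 0.364). It lies at chr13:98354242-98356703 and had 1.54, 4.14 and 4.37 FPKM in the CD49f-high libraries and 4.62, 5.13 and 8.61 FPKM in the CD49f-low libraries. CD49f-neg replicate 2 had 2.97 FPKM, while CD49f-neg replicates 1 and 3 were listed at 0. No housekeeping gene of 10 was listed at 0, but 57 rows of the table were listed at 0 in 1 library and at 2 FPKM or more in another of the same gate, so a failed estimate cannot be told apart from absence.

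Foxd1 was called higher in CD49f-low relative to CD49f-neg, at a log2 fold change of 2.13 (SE 0.52, limma adjusted p = 0.0255). This call was lost without CD49f-low replicate 2 (adjusted p = 0.0642), CD49f-low replicate 3 (0.0916), CD49f-neg replicate 1 (0.0666) or CD49f-neg replicate 3 (0.0943), and with no filter (0.0743). For CD49f-high against CD49f-neg it was 1.38 (SE 0.52, adjusted p = 0.0923), and the adjusted p was 0.0491 with the replicate number as a block and 0.00512 without CD49f-neg replicate 2. A separate row just downstream, inside the annotated Foxd1 gene, had 0.122, 0.353 and 0.206 FPKM in the CD49f-high libraries, 0.447, 0.729 and 0.509 FPKM in the CD49f-low libraries and 0.205, 0.0790 and 0.197 FPKM in the CD49f-neg libraries. There CD49f-low was also the highest gate, but CD49f-neg replicate 2 was the lowest of its gate.

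Foxd2, a related mesenchymal factor, was not called with all 9 libraries and no block. It had 1.34, 4.33 and 4.52 FPKM in the CD49f-high libraries, 2.58, 4.34 and 4.70 FPKM in the CD49f-low libraries and 1.48, 1.46 and 1.37 FPKM in the CD49f-neg libraries. CD49f-high replicate 1 lay at the level of CD49f-neg, and the other CD49f-positive libraries lay above it. In limma the log2 fold change was 0.75 (limma adjusted p = 0.121) for CD49f-high against CD49f-neg and 0.97 (adjusted p = 0.0638) for CD49f-low against CD49f-neg. Without CD49f-high replicate 1 these were 1.16 (adjusted p = 0.00364) and 0.97 (adjusted p = 0.00693), and with the replicate number as a block both were called, at adjusted p = 0.0448 and 0.0221.

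The gene Foxd2os, which starts 384 bases away on the opposite strand, was also low in that library. It had 0.564, 1.86 and 1.69 FPKM in the CD49f-high libraries, 1.19, 2.84 and 3.36 FPKM in the CD49f-low libraries and 0.533, 0.423 and 0.732 FPKM in the CD49f-neg libraries. CD49f-low was clear of CD49f-neg, and the log2 fold change between them was 1.09 (limma adjusted p = 0.0352).

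Dermal papilla and condensate genes, markers of the mesenchyme under the hair follicle, were mostly higher in CD49f-low. Of 14 tested, 11 were called higher in CD49f-low relative to CD49f-neg and 14 were called lower in CD49f-high relative to CD49f-low. In CD49f-high relative to CD49f-neg, 6 were higher and 4 lower. The shares of all rows were 12.8% higher in the first comparison, 10.5% lower in the second, and 13.9% higher and 8.27% lower in the last. Notum, a secreted inhibitor of Wnt signals, averaged 1.30 ± 0.477 FPKM in CD49f-high, 7.41 ± 0.861 in CD49f-low and 0.188 ± 0.0333 in CD49f-neg (SD, n = 3 each). The part of these genes in the Foxd1 result was not tested.

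**Figure D4:**
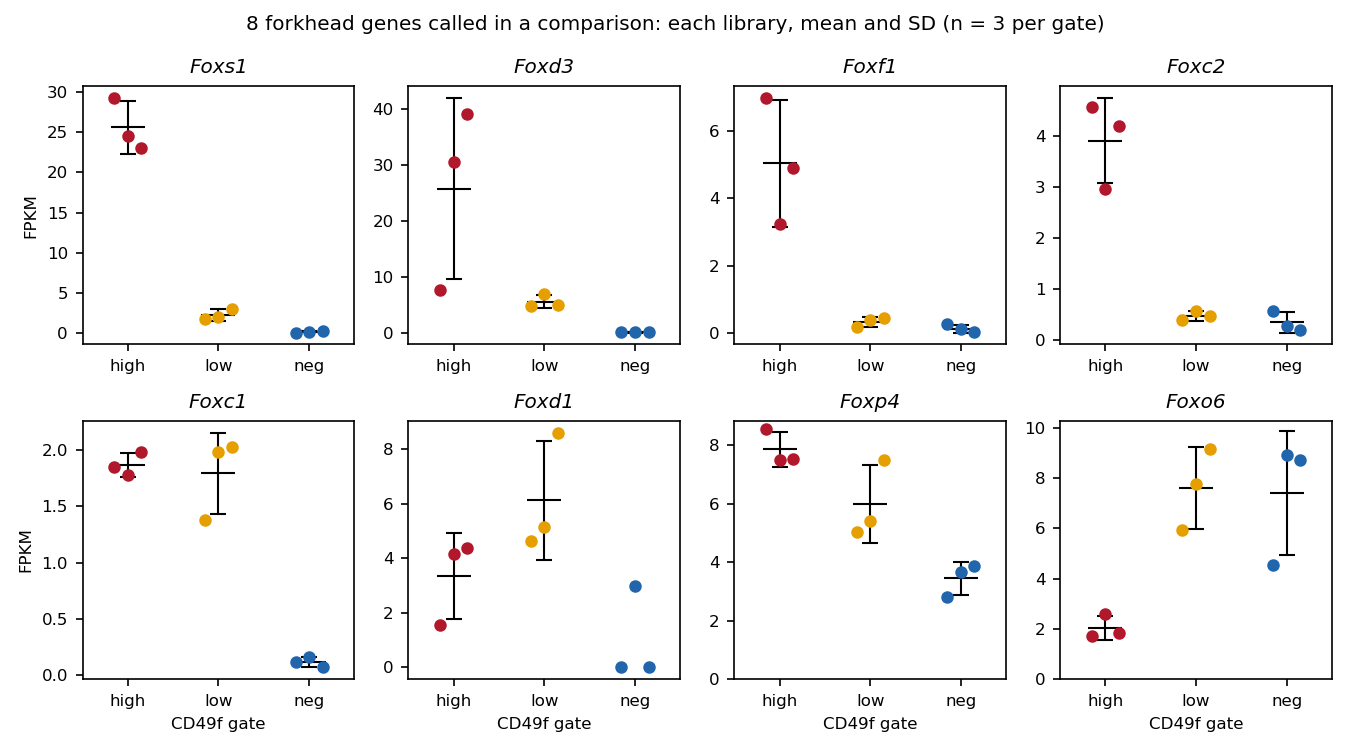
FPKM (vertical axes) of 8 forkhead genes called in at least 1 comparison, by CD49f gate, with each point a library and bars for mean and SD (n = 3; none drawn for Foxd1 in CD49f-neg, where 2 libraries are listed at 0). Foxs1, Foxd3, Foxf1 and Foxc2 are highest in CD49f-high, Foxc1 is near 1.8 in CD49f-high and CD49f-low, and Foxo6 is lowest in CD49f-high at 1.72 to 2.60.

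The FOXO genes split. Foxo6, known mainly from brain and liver and unusual among FOXO factors in staying largely nuclear, was lowest in CD49f-high, with 1.72, 2.60 and 1.83 FPKM in the CD49f-high libraries, 5.93, 7.75 and 9.16 FPKM in the CD49f-low libraries and 4.56, 8.93 and 8.71 FPKM in the CD49f-neg libraries. It lies at chr4:120267079-120287349 on the minus strand. CD49f-high was clear of both other gates, which overlapped. The log2 fold change was -1.43 (SE 0.24, limma adjusted p = 0.00222) for CD49f-high against CD49f-neg and -1.49 (SE 0.24, adjusted p = 0.00255) for CD49f-high against CD49f-low, and both calls held in every alternative fit that was run.

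Foxo1, a regulator of metabolism and of vessel growth, was modestly higher in the CD49f-positive gates. It had 7.10, 7.22 and 7.58 FPKM in the CD49f-high libraries, 6.79, 7.42 and 6.82 FPKM in the CD49f-low libraries and 5.51, 5.24 and 3.92 FPKM in the CD49f-neg libraries. Both CD49f-positive gates were clear of CD49f-neg and overlapped each other. On the log2 scale the fold change was 0.51 (SE 0.12, limma adjusted p = 0.0154) for CD49f-high against CD49f-neg and 0.45 (SE 0.12, adjusted p = 0.0362) for CD49f-low against CD49f-neg. That second call was lost under median-of-ratios scaling (0.21, adjusted p = 0.316), under quantile normalization (0.23, adjusted p = 0.255) and without CD49f-high replicate 2, any 1 CD49f-low library, or CD49f-neg replicate 2 or 3. It was also lost with no filter and in a fit of the 6 libraries compared.

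Foxo3, a stress-responsive factor and the most abundant FOXO gene here, averaged 14.0 ± 2.42 FPKM in CD49f-high, 15.6 ± 1.66 in CD49f-low and 11.5 ± 0.369 in CD49f-neg (SD, n = 3 each). Foxo4 averaged 6.05 ± 0.829, 7.42 ± 0.391 and 5.53 ± 0.371 FPKM in CD49f-high, CD49f-low and CD49f-neg. Neither was called, although with the replicate number as a block both were higher in CD49f-low relative to CD49f-neg, Foxo3 at 0.40 (limma adjusted p = 0.0347) and Foxo4 at 0.37 (adjusted p = 0.0334). In that comparison 3 of 17 alternative fits called Foxo3 and 4 of 17 called Foxo4. Across these fits the lowest values were 0.14 and 0.12, and the highest limma adjusted p were 0.657 and 0.650.

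Genes known as FOXO targets were called no more often than rows in general. Of 23, 3 were called higher in CD49f-high relative to CD49f-neg, 2 higher in CD49f-low relative to CD49f-neg and 2 lower in CD49f-high relative to CD49f-low, with medians of 0.31, 0.20 and 0.04. Over all rows, 13.9% were higher in the first comparison and 12.8% in the second, 10.5% were lower in the last, and the medians were 0.07, 0.21 and -0.15. Fbxo32, a ubiquitin ligase subunit of muscle wasting, averaged 4.52 ± 2.53 FPKM in CD49f-high, 2.87 ± 0.371 in CD49f-low and 0.854 ± 0.483 in CD49f-neg (SD, n = 3 each). Sod2, the mitochondrial superoxide dismutase, averaged 10.6 ± 3.40, 7.58 ± 0.548 and 5.59 ± 0.974 FPKM, and Cdkn1a, a cell cycle inhibitor, 23.7 ± 7.68, 22.5 ± 3.32 and 12.0 ± 4.29 FPKM, in CD49f-high, CD49f-low and CD49f-neg. For all 3 genes CD49f-high replicate 1 was the highest library.

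Among 14 genes of the insulin and PI3K-AKT pathway, which controls FOXO factors through phosphorylation, 1 was called higher and 1 lower in CD49f-high relative to CD49f-neg. In CD49f-low relative to CD49f-neg 1 was called higher, and in CD49f-high relative to CD49f-low 1 was called higher. The shares of all rows were 13.9% higher and 8.27% lower in the first comparison, 12.8% higher in the second and 5.93% higher in the last. Igf1, a growth factor that activates the pathway, averaged 6.04 ± 0.832, 8.26 ± 0.808 and 11.1 ± 2.93 FPKM in CD49f-high, CD49f-low and CD49f-neg (SD, n = 3 each) and was the gene called lower. Only mRNA was measured, and FOXO activity depends on where the protein is.

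Both FOXP genes above the filter were higher in CD49f-high relative to CD49f-neg, and neither was called between CD49f-high and CD49f-low (Foxp4 at 0.36, limma adjusted p = 0.153, and Foxp1 at 0.35, adjusted p = 0.161). Foxp4, a repressor known from lung and brain, lies at chr17:47867133-47924645 and had 8.55, 7.50 and 7.52 FPKM in the CD49f-high libraries, 5.04, 5.42 and 7.51 FPKM in the CD49f-low libraries and 2.80, 3.68 and 3.85 FPKM in the CD49f-neg libraries. CD49f-neg was clear of both other gates, which touched at CD49f-low replicate 3. In limma the log2 fold change was 1.00 (SE 0.15, limma adjusted p = 0.00136) for CD49f-high against CD49f-neg and 0.64 (SE 0.15, adjusted p = 0.0233) for CD49f-low against CD49f-neg. The call of CD49f-low against CD49f-neg was lost under median-of-ratios scaling (0.41, adjusted p = 0.144), under quantile normalization (0.43, adjusted p = 0.135), or without CD49f-low replicate 2 (0.0509), CD49f-low replicate 3 (0.0783) or CD49f-neg replicate 1 (0.0569), and with no filter (0.0655).

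Foxp1, a repressor with roles in hair follicle stem cells and lymphocytes, shares its row with the neighbouring Eif4e3, so the share of each is uncertain. The row had 2.57, 2.56 and 2.67 FPKM in the CD49f-high libraries, 2.07, 1.75 and 1.68 FPKM in the CD49f-low libraries and 1.73, 1.09 and 0.812 FPKM in the CD49f-neg libraries. CD49f-high was clear of both other gates. The log2 fold change was 0.73 (SE 0.15, limma adjusted p = 0.00792) for CD49f-high against CD49f-neg, and CD49f-low against CD49f-neg gave 0.38 (adjusted p = 0.123), or 0.54 (adjusted p = 0.0254) without CD49f-neg replicate 1. Foxp2, best known from speech circuits of the brain, was below the filter and had the opposite order, with 0.106, 0.117 and 0.120 FPKM in the CD49f-high libraries, 0.392, 0.248 and 0.304 FPKM in the CD49f-low libraries and 0.462, 0.493 and 0.449 FPKM in the CD49f-neg libraries.

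Foxm1, the driver of G2 and mitosis genes, had 6.11, 6.93 and 4.69 FPKM in the CD49f-high libraries, 4.42, 4.86 and 3.59 FPKM in the CD49f-low libraries and 1.14, 3.05 and 2.36 FPKM in the CD49f-neg libraries. Its row also covers Nrip2 and other symbols, so the value is uncertain. Every CD49f-neg library was below every other library. On the log2 scale the fold change was 1.15 (SE 0.23, limma adjusted p = 0.00564) for CD49f-high against CD49f-neg and 0.77 (SE 0.23, adjusted p = 0.049999) for CD49f-low against CD49f-neg. The call of CD49f-low against CD49f-neg was at the threshold and was lost in 14 of 16 alternative fits, among them those without any 1 CD49f-high or CD49f-low library or without CD49f-neg replicate 1 or 3, with a highest adjusted p of 0.189.

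FOXM1 target genes were called most often between CD49f-low and CD49f-neg. Of 18 such genes, 3 were called higher in CD49f-high relative to CD49f-neg, 11 were called higher in CD49f-low relative to CD49f-neg, and 2 were called lower in CD49f-high relative to CD49f-low, with medians of 0.43, 0.72 and -0.28. Of all rows tested, 13.9% were higher in the first comparison, 12.8% higher in the second and 10.5% lower in the last. The medians of all rows were 0.07, 0.21 and -0.15. Top2a, the topoisomerase of dividing cells, averaged 16.6 ± 2.68 FPKM in CD49f-high, 23.2 ± 3.35 in CD49f-low and 10.7 ± 1.77 in CD49f-neg (SD, n = 3 each). Cdc25b, a phosphatase that starts mitosis, averaged 4.36 ± 0.883, 7.83 ± 0.424 and 3.52 ± 0.762 FPKM in CD49f-high, CD49f-low and CD49f-neg. Foxm1 had its highest mean in CD49f-high, and both target genes had theirs in CD49f-low. Between CD49f-high and CD49f-low, Foxm1 (0.38, limma adjusted p = 0.296) and Top2a (-0.47, adjusted p = 0.0842) were not called. Cdc25b was called lower in CD49f-high (-0.73, limma adjusted p = 0.0105).

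Foxn3, a checkpoint-linked repressor, was slightly lower in CD49f-high. It had 9.17, 8.70 and 8.82 FPKM in the CD49f-high libraries, 14.0, 11.3 and 12.4 FPKM in the CD49f-low libraries and 12.3, 11.1 and 11.1 FPKM in the CD49f-neg libraries. CD49f-high was clear of both other gates. In limma the log2 fold change was -0.45 (SE 0.11, limma adjusted p = 0.0172) for CD49f-high against CD49f-low and -0.34 (SE 0.11, adjusted p = 0.0475) for CD49f-high against CD49f-neg. The first call was lost without CD49f-high replicate 2 or 3 or CD49f-low replicate 1 or 3 (adjusted p at most 0.0661) and under median-of-ratios scaling (-0.29, adjusted p = 0.114) or no filter (-0.45, adjusted p = 0.0524). The second was lost without any 1 library other than CD49f-low replicate 1 (adjusted p at most 0.113), with no filter, with no trend and in a fit of the 6 libraries compared.

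Foxk1, a factor of muscle progenitors and of metabolism, had 8.06, 8.78 and 8.04 FPKM in the CD49f-high libraries, 10.2, 9.71 and 10.5 FPKM in the CD49f-low libraries and 7.557, 8.235 and 7.999 FPKM in the CD49f-neg libraries. CD49f-low was clear of both other gates. The call of CD49f-low against CD49f-neg, 0.32 (SE 0.09, limma adjusted p = 0.0468), was lost in 13 of 17 alternative fits, among them median-of-ratios scaling (0.06, adjusted p = 0.775) and the fits without any 1 library other than CD49f-high replicate 1.

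The remaining widely expressed members were not called in any comparison. Foxj2, a factor first described in testis whose row also carries Mir7231, averaged 5.97 ± 0.422 FPKM in CD49f-high, 4.78 ± 0.970 in CD49f-low and 4.13 ± 0.527 in CD49f-neg (SD, n = 3 each), and with the replicate number as a block it was called higher in CD49f-high relative to CD49f-neg at 0.45 (limma adjusted p = 0.0229). Foxn2 averaged 7.93, 7.24 and 6.45 FPKM, Foxk2 4.28, 4.65 and 3.99 FPKM and Foxj3 3.68, 4.50 and 4.25 FPKM in CD49f-high, CD49f-low and CD49f-neg. A value that missed the threshold does not show that the gates were alike.

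**Figure D5:**
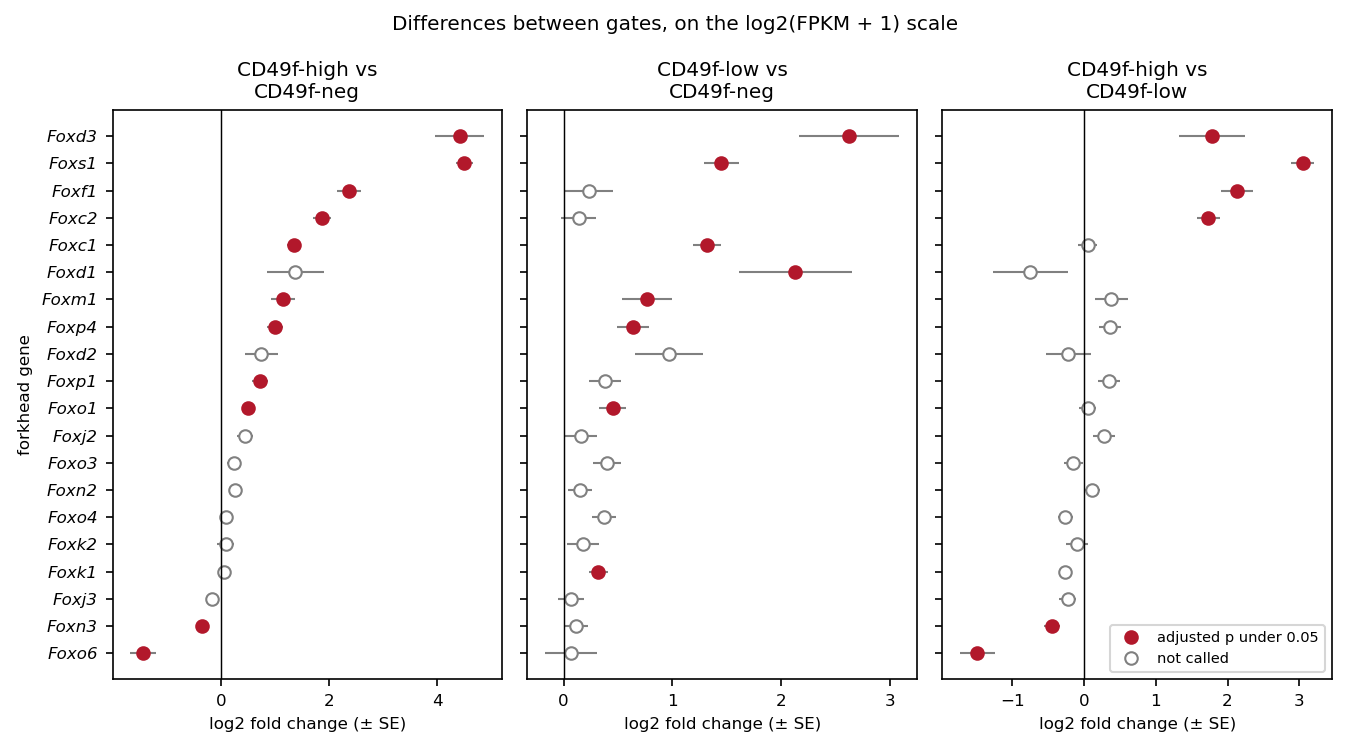
Log2 fold change on the log2(FPKM + 1) scale with its standard error (horizontal axes, each with its own range) for the 20 forkhead genes above the filter, in the comparisons of CD49f-high with CD49f-neg, CD49f-low with CD49f-neg and CD49f-high with CD49f-low. Filled points have an adjusted p under 0.05. Foxs1 and Foxd3 are filled in all 3 panels, and Foxo6 lies at -1.43 and -1.49 in the panels with CD49f-high.

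By mean level per length, Foxd3 and Foxs1 led in CD49f-high and Foxo3 and Foxn3 in the other gates. In CD49f-high, Foxd3 and Foxs1 averaged 25.8 and 25.6 FPKM, above Foxo3 at 14.0 FPKM. In CD49f-low, Foxo3 at 15.6 FPKM and Foxn3 at 12.6 FPKM led, and in CD49f-neg Foxn3 and Foxo3 were both at 11.5 FPKM. Libraries of Foxd3 and Foxs1 overlapped in CD49f-high, as did those of Foxn3 and Foxo3 in CD49f-neg, so the order within these pairs is uncertain. Foxd3 and Foxo3 overlapped in CD49f-high as well. In CD49f-high replicate 1 Foxd3 had 7.68 FPKM and Foxo3 13.5 FPKM, so the lead of Foxd3 over Foxo3 is also uncertain.

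The other 23 forkhead genes did not pass the filter, and 16 of them were under 0.2 FPKM in every library. They included Foxa2, Foxa3, Foxb1, Foxb2, Foxd4, Foxe1, Foxe3, Foxh1, Foxi1, Foxi2, Foxl2, Foxn4 and Foxr1, as well as Foxn1, which acts in hair follicle epithelium and thymus, and Foxp3, the factor of regulatory T cells, whose row also carries Ppp1r3fos. The highest value of any of the 23 was 1.13 FPKM, for Foxf2 in CD49f-high replicate 3. Beside Foxf2, Foxl1, Foxp2 and Foxq1, those reaching 0.2 FPKM were Foxa1, Foxi3 and Foxj1. Foxi3, a factor of ectodermal placodes and hair, reached 0.371 FPKM, Foxj1, the regulator of motile cilia, 0.452 FPKM and Foxa1, a factor of endoderm and glands, 0.280 FPKM, each in CD49f-high replicate 2.

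When rows with low values were kept in the fit, 4 of these 23 were called. Of all 84809 rows, that fit called 5.96% between CD49f-high and CD49f-neg, 3.19% between CD49f-low and CD49f-neg and 4.36% between CD49f-high and CD49f-low. Foxf2 was higher in CD49f-high relative to CD49f-neg, at a log2 fold change of 0.52 (limma adjusted p = 0.0255), and relative to CD49f-low, at 0.57 (adjusted p = 0.0224). Foxl1 at 0.48 (adjusted p = 0.0384) and Foxa1 at 0.22 (adjusted p = 0.0386) were higher in CD49f-high relative to CD49f-neg, and Foxp2 was lower, at -0.40 (adjusted p = 0.0265). Of the rows of 14 keratinocyte genes, 10 passed the filter and all 10 were called higher in CD49f-high relative to CD49f-neg. In CD49f-high relative to CD49f-low, 6 were higher and 1 lower. The shares of all rows above the filter were 13.9% higher in the first comparison, and 5.93% higher and 10.5% lower in the second. The lower one was Cdh1, the epithelial cadherin, with 3.54 ± 1.37 FPKM in CD49f-high, 18.7 ± 2.71 in CD49f-low and 0.0794 ± 0.0569 in CD49f-neg (SD, n = 3 each). The row that carries 6 symbols, among them Krt14, Krt15 and Krt17, keratins of basal and follicle keratinocytes, had 7.41 ± 2.55 FPKM in CD49f-high, 1.52 ± 0.247 in CD49f-low and 0.251 ± 0.0322 in CD49f-neg. The part of keratinocyte genes in the Foxa1 and Foxi3 values was not tested.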

How the data were processed

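RNA was measured in 9 libraries, 3 per gate. Cells went from the sorter into Trizol, and the library kit was NEBNext Ultra, per the labels' protocols. Only FPKM values, in 1 table, were deposited. The tools named are FastQC, TopHat2 and StringTie, and the build GRCm38, per the submitters' processing notes, with versions, strand and filters not given in the sources used here. Without strand, overlapping genes on opposite strands are uncertain, as are the 5 forkhead rows with 2 or more symbols, of which 4 were tested.

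Values were used as log2(FPKM + 1) for the 20523 rows with at least 1 FPKM in at least 3 libraries. The comparisons used limma 3.58.1 (R 4.3.3) with group means, empirical Bayes with trend, 6 residual degrees of freedom and two-sided tests, adjusted over all rows by the Benjamini-Hochberg method. The fit was tested on simulated data. Depth was estimated from the FPKM steps of 2380 single-exon genes. Called members are named with every library's FPKM, and of each list up to 4 called genes with the smallest adjusted p of the F test over gates were eligible.

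Libraries with the same replicate number deviated together (r of 0.252 to 0.520 over 9 pairs, against -0.453 to 0.118 over 18 pairs with different numbers), so the numbers were taken to pair the libraries, a pairing that comes from the data. Other settings tried were quantile normalization, median-of-ratios scaling, a pseudocount of 0.1, a filter of 5 FPKM, no filter, the replicate block, no trend, a fit on the 6 libraries compared, and each library left out. The members and lists were chosen with earlier results of these data known. The results of a few genes are not reported here.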

Additional observations from a re-analysis of the deposited data

How the results depend on the processing

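Of the 25 calls of forkhead genes, 17 held in every alternative in which the gene was tested (16 or 17) and 8 were lost in at least 1, and no called value changed sign. The stricter filter tested 7340 rows in each comparison, against 20523 as reported. For CD49f-high against CD49f-neg, it left 6 forkhead genes and 1911 rows called, against 4541 rows as reported. For CD49f-low against CD49f-neg, 3 forkhead genes were called with no filter, 4 with median-of-ratios scaling, 4 with quantile normalization and 3 to 8 with 1 library left out. Of all rows in that comparison, 1358 were called with the stricter filter, 2044 with quantile normalization, 5806 with the replicate block and 1614 to 3764 with 1 library left out. For CD49f-high against CD49f-low, 1323 rows were called with the stricter filter, 5309 with the replicate block and 2201 to 3585 with 1 library left out. Over the 3 gates, the stricter filter left 7 forkhead genes, 2340 rows and 85 list genes, and the replicate block gave 8995 rows. The stricter filter tests fewer rows; the cause of the other shifts was not tested. With the replicate number as a block, 14, 11 and 6 forkhead genes were called for CD49f-high against CD49f-neg, CD49f-low against CD49f-neg and CD49f-high against CD49f-low, beside 6408 rows in the first, and the calls it changed are given beside those genes.

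Scaling moved the split of all rows. For CD49f-high against CD49f-neg it was 2844 higher and 1697 lower as reported, 2480 and 2232 with median-of-ratios scaling, and 2186 and 2315 with quantile normalization. For CD49f-low against CD49f-neg it was 2623 and 537, then 1117 and 1093, and 1040 and 1004. For CD49f-high against CD49f-low it was 1216 and 2151, then 1614 and 1331, and 1577 and 1431.

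Among the 13 genes with a call, values that were not called and changed sign were Foxc1 for CD49f-high against CD49f-low (-0.07 to 0.11 with 1 library left out, lowest without CD49f-low replicate 1) and Foxk1 for CD49f-high against CD49f-neg (-0.04 with median-of-ratios scaling, -0.05 with quantile normalization). For CD49f-low against CD49f-neg they were Foxc2 (-0.18) and Foxf1 (-0.04) with quantile normalization, Foxn3 (-0.15 with median-of-ratios scaling, -0.06 with quantile normalization) and Foxo6 (-0.18, -0.13, and -0.21 to 0.22 with 1 library left out, below 0 without CD49f-low replicate 3 or CD49f-neg replicate 1). All 7 genes called in no comparison also changed sign in at least 1 alternative, to sizes of 0.18 or less. With 3 libraries per gate, levels under about 1 FPKM rest on few fragments, and differences there may not be detectable at this depth.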

Other observations

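Rows without a symbol that lie inside the long forkhead genes on the same strand were not used above. Inside Foxp1, which encodes a transcriptional repressor, all 20 such rows had a higher mean in CD49f-high than in CD49f-neg. Their summed FPKM was 17.5, 18.1 and 19.3 in the CD49f-high libraries, 18.3, 10.9 and 12.1 in the CD49f-low libraries and 10.8, 5.88 and 5.22 in the CD49f-neg libraries. Of the 3 that passed the filter, none was called with limma in any of the 3 comparisons. Inside Foxp2, all 10 such rows had a lower mean in CD49f-high than in CD49f-neg and none passed the filter. Inside Foxn3, all 5 were lower on average in CD49f-high, with sums of 4.80, 3.12 and 3.82 FPKM in the CD49f-high libraries and 5.55, 5.28 and 5.35 FPKM in the CD49f-neg libraries. Inside Foxo1, both of 2 such rows were tested and 1 was called higher in CD49f-low relative to CD49f-neg. Their sums were 5.15, 5.84 and 4.55 FPKM in the CD49f-high libraries, 7.16, 8.07 and 5.93 FPKM in the CD49f-low libraries and 4.41, 3.96 and 3.25 FPKM in the CD49f-neg libraries. The 1 such row inside Foxj3 was tested and not called. Rows inside 1 gene share its transcripts and are not independent of it.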
